A study of Mus musculus with 12 samples.

Results

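The lysosome is the acidic compartment in which microglia, the resident macrophages of the brain, break down what they engulf. The 37 genes described here encode its proteases, other hydrolases, cofactors and membrane proteins, subunits of the proton pump that acidifies it, and receptors of phagocytosis. They were taken by name from the gene column of a table of H3K27ac tag counts, and each gene's value was the sum over its windows within 100 kb of a transcription start site. The 37 genes are among 15879 with such a window, and they held 248 of the 67822 windows in the table, 246 of them within 100 kb.

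H3K27ac is acetylation of lysine 27 on histone H3, a mark of active promoters and enhancers, and it was measured by chromatin immunoprecipitation and sequencing (ChIP-seq) in CD11b+ cells of mouse forebrain, isolated with magnetic beads after myelin removal. The Nlrp3 knockout mice carried the Cias1 knockout allele of Millennium Pharmaceuticals, named Nlrp3-/-. The wild-type mice were of C57BL/6N background, and the labels do not say onto which background the knockout was bred. Each genotype had 3 H3K27ac libraries and 3 input libraries of sheared chromatin. Nlrp3, also named Cias1, is the sensor of an inflammasome, and the series title places the work in glutamine metabolism of microglia in Alzheimer's disease. Treatment, age and sex are not in the labels, and nothing there says that the replicates of a genotype came from separate animals. The p-values measure the spread between these libraries. That spread may be technical, other than between wild-type replicate 1 and the other wild-type libraries, which differ in Y-linked tags.

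Lysosomal enzymes are made as precursors, sorted to the lysosome and activated there at low pH. Phagosomes that carry engulfed debris mature by fusing with lysosomes. Many lysosomal genes share a short promoter sequence, the CLEAR element, which the transcription factor TFEB and its relatives bind, and PU.1 is a factor that shapes enhancers in microglia and other macrophages. Both are background and were not measured here.

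The knockout H3K27ac libraries held 4531757, 5028129 and 4926729 tags and the wild-type libraries 3726550, 4492763 and 4233044 tags. Tags summed over the windows came to 39.1% to 46.1% of each total, with tags in overlapping windows counted more than once. Inputs ranged from 3287009 to 6961590 tags, with window sums, counted the same way, of 8.31% to 9.32%. The window over the Nlrp3 start site at chr11:59542134-59543134 (mm10) had 1, 0 and 16 tags in knockout libraries, against 180, 180 and 195 in wild-type libraries. Wild-type replicate 3 and knockout replicate 3 lay apart from the other H3K27ac libraries, on the first and the second principal component of single windows, those with few tags left out. Wild-type replicate 1 had 0 tags at Y-linked promoters, against 183 to 239 in each of the other H3K27ac libraries. Its input also had 0, against 13 and 10 in the other wild-type inputs. Wild-type replicate 1 was thus not from the same animals as the other wild-type libraries, and sex differed within that group. Gla and Lamp2 lie on the X chromosome, and the part of this difference in their values was not tested. Microglia markers, all 10 of which were tested, had a median of 17.5 times the input in knockout and 13.5 times in wild type. Border macrophage markers stood at 2.95 times in knockout and 2.02 times in wild type over the 5 tested of 7, with summed levels of 61.8 to 98.0 CPM (tags per 1000000 tags in all windows of a library, the scale of all levels here) in knockout libraries and 61.3 to 77.1 CPM in wild-type libraries. Markers of neurons, oligodendrocytes, endothelial and mural cells, monocytes and neutrophils, and lymphocytes stood at 2.86 to 6.93 times the input in knockout and 2.28 to 8.198 times in wild type, and no astrocyte marker had enough tags to test. The values for neurons and lymphocytes were medians of 2 tested genes each, and that for monocytes and neutrophils of 3. Oligodendrocyte markers had the highest summed level of these other lists, 286 to 337 CPM in knockout libraries and 294 to 324 in wild-type libraries. Microglia markers summed to 3162 to 3377 CPM in knockout and 2985 to 3691 in wild type. No marker list held a gene called between genotypes.

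Some of the promoter sequences are shown because they carry elements that lysosomal genes are known for. H3K27ac in the windows over these start sites is given further on, other than for Ctsa, whose element lies outside its windows. The RefSeq promoter table (build GRCm38.p6, 250 bases before to 50 after a start site) holds 32 of the 37 genes, and Ctsb, Ctsh, Npc1, Atp6v1h and Atp6v0d2 are not shown. The core letters of the CLEAR element, TCACGTGA, which read the same on both strands, stood in the promoters of 6 of the 32 genes (18.8%), against 1.12% of all 27025 genes in the table. The genes were Atp6v0d1, Atp6v1a, Ctsa, Ctsd, Gla and Mcoln1. The shorter E-box core CACGTG, which lies within it and also equals its other strand, stood in 11 of the 32 (34.4%), against 8.09% of all genes. A PU.1 core, GAGGAAGT or ACTTCCTC on the other strand, stood in 4 of the 32 (12.5%), against 3.69% of all genes. A match describes letters only and shows no binding.

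The stretches with TCACGTGA in capitals are given 5′ to 3′ on the strand of each gene, and all of the Gla promoter is printed because it holds the element in 2 places. The Ctsd stretch lies on the minus strand at chr7:142387893-142387952 with the element beginning 99 bases before the start site. That of Ctsa lies on the plus strand at chr2:164833734-164833793 with its 2 copies around the start site. Those of Mcoln1 (plus strand, chr8:3500447-3500506), Atp6v1a (minus strand, chr16:44139358-44139417) and Atp6v0d1 (minus strand, chr8:105566035-105566094) begin the element 46, 132 and 4 bases before the start. The Gla promoter lies on the minus strand at chrX:134600956-134601255.
Ctsd: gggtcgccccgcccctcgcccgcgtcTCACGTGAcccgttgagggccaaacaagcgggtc
Ctsa: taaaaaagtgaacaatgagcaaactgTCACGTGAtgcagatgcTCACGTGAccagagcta
Mcoln1: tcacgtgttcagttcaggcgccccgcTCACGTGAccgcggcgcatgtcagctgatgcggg
Atp6v1a: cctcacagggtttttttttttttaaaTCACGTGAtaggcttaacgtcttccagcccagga
Atp6v0d1: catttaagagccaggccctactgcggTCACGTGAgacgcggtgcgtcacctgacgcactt
Gla: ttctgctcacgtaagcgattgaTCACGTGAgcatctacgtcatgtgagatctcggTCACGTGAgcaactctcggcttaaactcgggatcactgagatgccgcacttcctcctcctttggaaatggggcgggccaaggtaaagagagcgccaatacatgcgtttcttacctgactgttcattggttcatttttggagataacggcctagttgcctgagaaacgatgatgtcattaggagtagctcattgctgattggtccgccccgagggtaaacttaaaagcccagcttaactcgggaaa

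Shown next are Lamp1 and Gaa, which have only the E-box core in this window, and Ctss, which has the PU.1 core. Capitals mark CACGTG in Lamp1 (plus strand, chr8:13159106-13159165) and in Gaa (plus strand, chr11:119267796-119267855), and ACTTCCTC in Ctss (plus strand, chr3:95526758-95526817). The Ctss match begins 2 bases before the start site and the Gaa match 140 bases before it.
Lamp1: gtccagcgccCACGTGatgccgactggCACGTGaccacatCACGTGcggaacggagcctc
Gaa: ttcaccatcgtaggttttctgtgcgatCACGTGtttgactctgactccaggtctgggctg
Ctss: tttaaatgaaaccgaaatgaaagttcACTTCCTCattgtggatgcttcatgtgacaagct

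H3K27ac stood high over input at nearly all of these genes in both genotypes. In the edgeR quasi-likelihood fit of ChIP against input, 35 of 37 were called higher (adjusted p under 0.05) in the knockout, where 87.9% of all genes tested were, and 35 of 37 in wild type, where 85.6% were. The members' median was 11.98 times the input in knockout, against 7.32 for all genes, and 10.7 times in wild type, against 6.42 for all genes. Ctsz, a lysosomal carboxypeptidase of the cathepsin family, was highest at 35.3 times in knockout and 45.5 times in wild type. The genes not called in either genotype were Ctsk, the collagen-degrading cathepsin known from osteoclasts, at 1.78 times in knockout and 1.35 times in wild type, and Cd36, a scavenger receptor for oxidised lipids, at 3.25 times in knockout and 1.71 times in wild type. Among the role groups the median fold was lowest in the hydrolases in both genotypes, at 10.8 times the input in knockout and 9.32 times in wild type, and highest in the soluble cofactors, at 14.2 times in knockout and 13.6 times in wild type. The share of members called is near that of all genes, so it is no result about lysosomal genes as such.

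**Figure D1:**
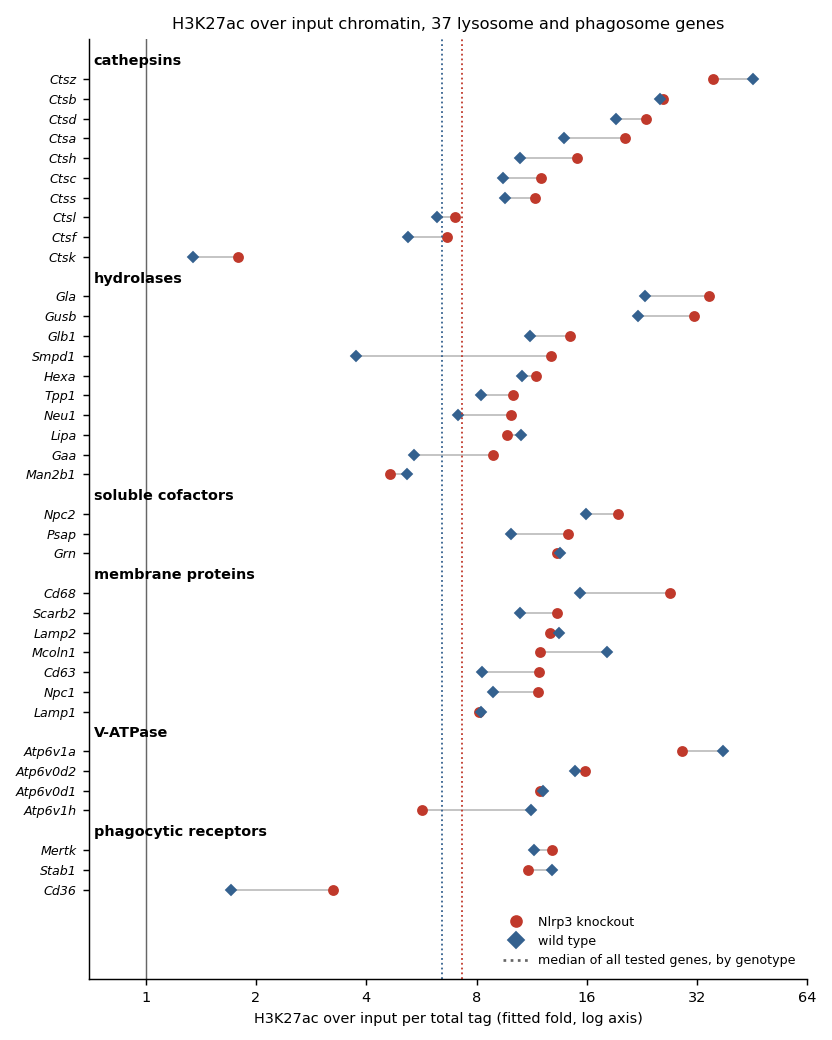
H3K27ac over input chromatin for each of the 37 genes, as the fitted fold per total tag on a log axis. Red circles are the knockout, blue diamonds wild type and dotted lines the medians of all tested genes (7.32 in knockout, 6.42 in wild type); Ctsk and Cd36 lie farthest left in both genotypes.

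The number of windows per gene ran from 1 to 25 with a median of 6, against 2 over all genes, so levels of different genes are compared per window of 1000 bp. The members' median was 20.9 CPM per window in knockout and 20.4 in wild type, against 11.9 in each genotype over all tested genes, and 32 members lay above that all-gene median in knockout and 30 in wild type. Ctsz stood first with 82.9 CPM per window in knockout and 84.7 in wild type. Atp6v1a, the catalytic subunit of the proton pump, followed with 61.9 in knockout and 71.6 in wild type. Then came Ctsb, a cysteine protease, with 50.2 in knockout and 53.1 in wild type. The SDs of these 3 genes' levels were 1.01% to 12.8% of the mean, and the order was the same in both genotypes. At the low end stood Ctsk with 2.61 CPM per window in knockout and 2.21 in wild type, and Cd36 with 3.38 in knockout and 2.25 in wild type.

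The members' windows lay in introns in 44.8% of cases, against 38.6% of all windows, in promoters in 22.2%, against 25.8%, and between genes in 24.6%, against 30.3%. By the authors' site lists, 201 windows (81.0%, against 75.5% of all windows) were in the knockout list and the wild-type list, 17 (6.85%, against 8.18%) in the knockout list alone and 30 (12.1%, against 16.3%) in the wild-type list alone. Promoter windows, within 1 kb of a start site, had a median of 29.3 CPM in knockout and 26.01 in wild type over 55 windows, and distal windows 20.5 CPM in knockout and 20.1 in wild type over 152 tested windows. Over all tested windows the promoter medians were 19.1 CPM in knockout and 19.3 in wild type, and the distal medians 14.2 in each.

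Between genotypes, none of the 37 genes passed the test. The edgeR quasi-likelihood fit called 0 of 37, with a lowest adjusted p of 0.780, and 0.206% of all 12148 genes tested. DESeq2 also called 0, and at an unadjusted p under 0.05 edgeR gave 1 gene, Ctsd, where 5.77% of all genes were under it. The fitted log2 fold changes of knockout over wild type ran from -0.68 (Man2b1) to 0.93 (Smpd1), with 23 positive and 14 negative (50.2% of all genes were positive), and the median was 0.08, against 0.0013 over all genes. The 3 knockout libraries all lay above, or all below, the 3 wild-type libraries in 4 genes, where 11.4% of all genes did so: above in Ctsf and Atp6v0d2, below in Ctsd and Atp6v1a. The 95% interval of the log2 change lay within 1 on either side of 0 in 28 genes and passed it in 9, and in 20 genes it excluded a change of 1.5-fold or more. The members' median coefficient of variation was 16.3% in knockout and 14.3% in wild type, against 22.8% in knockout and 23.5% in wild type over all genes, and their median SE was 0.20, against 0.34 over all genes. Their summed levels were also higher, with 29 of 37 above the median of all tested genes. A difference smaller than these intervals was not detectable at this depth, and in chromatin from many cells a change in fewer cells and a smaller change in all of them cannot be told apart.

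**Figure D2:**
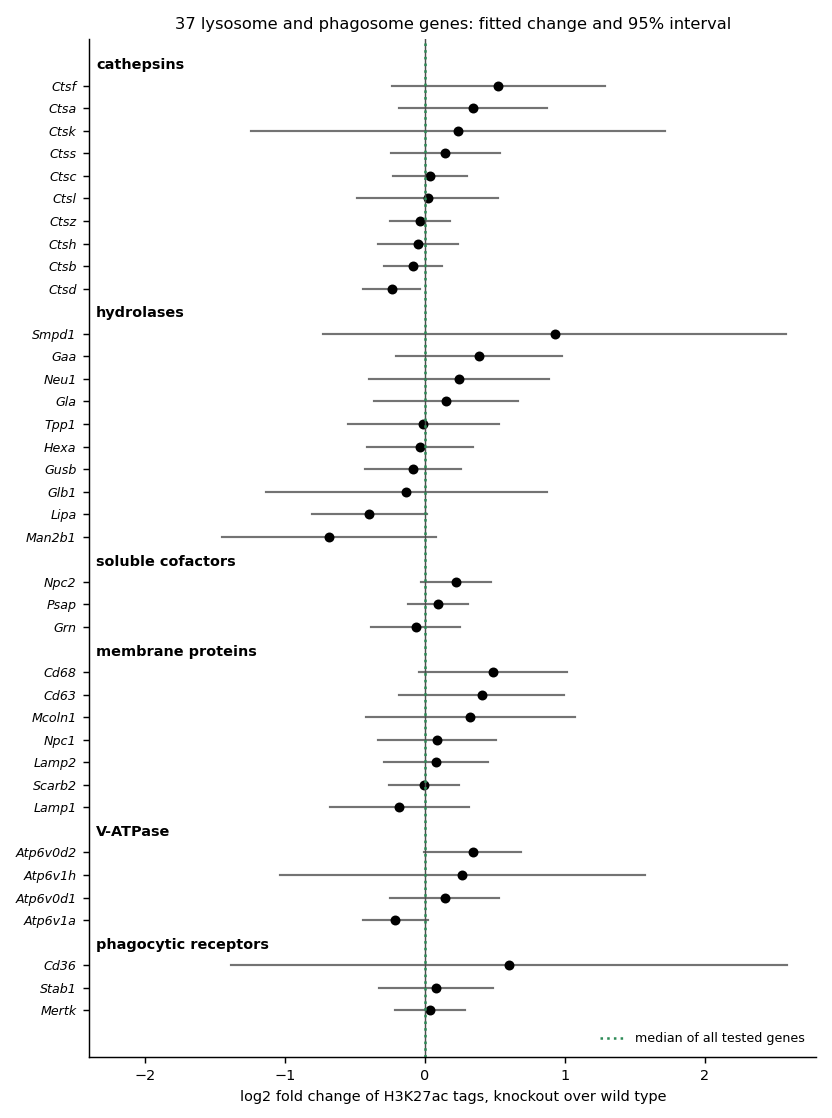
Fitted log2 fold change of H3K27ac tags per gene, knockout over wild type, as points with 95% intervals for the 37 genes by role. The dotted green line is the median of all tested genes at 0.0013; the points run from -0.68 (Man2b1) to 0.93 (Smpd1), and the interval of Ctsd alone leaves out 0, before adjustment over all genes.

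The 10 cathepsins, proteases that digest engulfed and autophagic protein, had log2 changes of -0.24 to 0.53 with 6 positive and 4 negative, and 0 were called. Ctsd, the aspartic protease cathepsin D, had 599, 593 and 497 CPM in knockout libraries, against 682, 668 and 636 in wild-type libraries. All 3 knockout values lay under the lowest wild-type value, and the means were 563 ± 57.1 CPM in knockout and 662 ± 23.4 in wild type (SD, n = 3 each). The log2 change was -0.24 with a standard error (SE) of 0.10, and it did not pass adjustment (edgeR adjusted p = 0.780); without knockout replicate 3 it was -0.16. Ctsd's input had a log2 change of -0.50 in knockout over wild type that was not called (edgeR adjusted p = 0.385). The input fit was scaled to total tags, unlike the H3K27ac fit, and its median over all genes was -0.20. The part of Ctsd's input in its H3K27ac value was not tested.

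The Ctsd promoter window at chr7:142387380-142388380, which holds the TCACGTGA stretch printed above, had 81, 128 and 79 tags in knockout libraries, against 66, 95 and 92 in wild-type libraries. In CPM it averaged 45.3 ± 9.48 in knockout and 46.4 ± 6.38 in wild type (SD, n = 3 each), so the libraries of the 2 genotypes overlapped at the start site. A window 11611 bp upstream had 119, 70 and 122 tags in knockout, against 151, 144 and 133 in wild type, a log2 change of -0.66 with SE 0.25 that was not called (edgeR adjusted p = 0.998) and was -0.40 without knockout replicate 2. In CPM that window's knockout libraries were all below the wild-type ones. The next window, 10305 bp upstream, had 211, 227 and 106 tags in knockout, against 208, 223 and 188 in wild type, and there the libraries overlapped.

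Ctsb had the highest summed level of all cathepsins, with 605, 703 and 649 CPM in knockout libraries, against 592, 763 and 715 in wild-type libraries. The libraries overlapped and the log2 change was -0.09 with SE 0.10. Its promoter window had 110, 125 and 96 tags in knockout, against 66, 138 and 108 in wild type. A window 18258 bp upstream had 202, 205 and 136 tags in knockout, against 166, 220 and 296 in wild type, with a log2 change of -0.54 and SE 0.21 that was not called (edgeR adjusted p = 0.981). Scaled to CPM, all knockout libraries were lower there, and wild-type replicate 3 was the highest, without which the log2 change was -0.35.

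Ctss, cathepsin S, is active at neutral pH and trims the invariant chain of MHC class II. It had 109, 134 and 148 CPM in knockout libraries, against 108, 128 and 115 in wild-type libraries, and the groups overlapped (log2 change 0.15, SE 0.19, and 0.05 to 0.26 without single libraries). Its promoter window, which holds the ACTTCCTC stretch, had 79, 115 and 84 tags in knockout, against 52, 89 and 81 in wild type. Cathepsin A (Ctsa), a carboxypeptidase that protects beta-galactosidase and neuraminidase in the lysosome, had 2 promoter windows. The one centred 13 bp before the start had 78, 102 and 76 tags in knockout, against 34, 63 and 40 in wild type, with no overlap, a log2 change of 0.68 and SE 0.32, not called (edgeR adjusted p = 0.998). The other, 971 bp past the start, had 62, 130 and 58 tags in knockout, against 57, 82 and 64 in wild type, and there the groups overlapped. The 2 copies of TCACGTGA lie between these windows, outside both, at another start site of Ctsa.

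Ctsl, cathepsin L, had at 5309 bp upstream a window with 18, 4 and 5 tags in knockout, against 28, 4 and 38 in wild type, and its libraries overlapped (log2 change -1.58, SE 0.77, and -2.54 without knockout replicate 1). Over the gene its log2 change was 0.02. Ctsf, cathepsin F, had low and close values of 28.3, 27.2 and 28.5 CPM in knockout, against 20.2, 19.5 and 18.4 in wild type. These did not overlap, and at this low level the log2 change of 0.53 had an SE of 0.37 (edgeR adjusted p = 0.931). Ctsz, the gene with the highest level per window, had 623, 564 and 553 CPM in knockout, against 603, 513 and 664 in wild type, and its promoter window had 240, 277 and 200 tags in knockout, against 228, 189 and 236 in wild type. Ctsc, the dipeptidyl peptidase that activates serine proteases of immune cells, had 284, 282 and 315 CPM in knockout, against 303, 273 and 281 in wild type. The groups of Ctsc, Ctsh, Ctsk and Ctsz overlapped between genotypes, with log2 changes of -0.05 to 0.24 over the gene.

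Among the 10 other hydrolases, most of which split glycogen, glycolipids, sugars and lipids, the gene sums gave no call, and 4 log2 changes were positive and 6 negative. Gaa, acid alpha-glucosidase, splits glycogen in the lysosome. It held the only window of the 207 tested that was called, which is 0.483% of them, against 0.0595% of all 40370 windows tested. The members' share rests on that window alone, so it shows no excess of called windows among the members. This window lay at chr11:119280817-119281817 (mm10), 13354 bp past the Gaa start, in intron 15 of 19, and its site was in the authors' knockout list only. It had 29, 54 and 17 tags in knockout libraries, against 0, 0 and 0 in wild-type libraries. Its site and its tags thus came from the knockout only, and it was tested only through the genotype in which it was high. With a floor of 3 tags over the wild-type group, the 100 pooled knockout tags were 28.7-fold higher relative to total tags (edgeR adjusted p = 0.00751). That fold bounds the wild-type count only and leaves out the spread between the knockout libraries. Since the labels do not give the background of the knockout, a difference of strain and an effect of the knockout cannot be told apart at this window.

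Input chromatin in the same window had 3, 1 and 0 tags in knockout, against 1, 4 and 0 in wild type, so wild-type input libraries did hold tags there. The call did not pass without knockout replicate 1 (adjusted p = 0.0573), knockout replicate 2 (0.397) or wild-type replicate 2 (0.0614). Without wild-type replicate 1, the library with 0 Y-linked tags, it passed with an adjusted p of 0.0442, and it passed without knockout replicate 3 (0.00784) or wild-type replicate 3 (0.00845), the libraries that lay apart. The Gaa promoter window, over the CACGTG stretch printed above, had 48, 88 and 46 tags in knockout, against 59, 34 and 44 in wild type, and the groups overlapped. A pair of overlapping windows at -9298 and -8783 bp, within an intron of a neighbouring transcript, had 3 to 31 tags in knockout and 4 to 35 in wild type. The remaining windows, at -18791 and -14534 bp, had 0 to 6 tags in knockout and 0 to 2 in wild type and were too low to test.

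**Figure D3:**
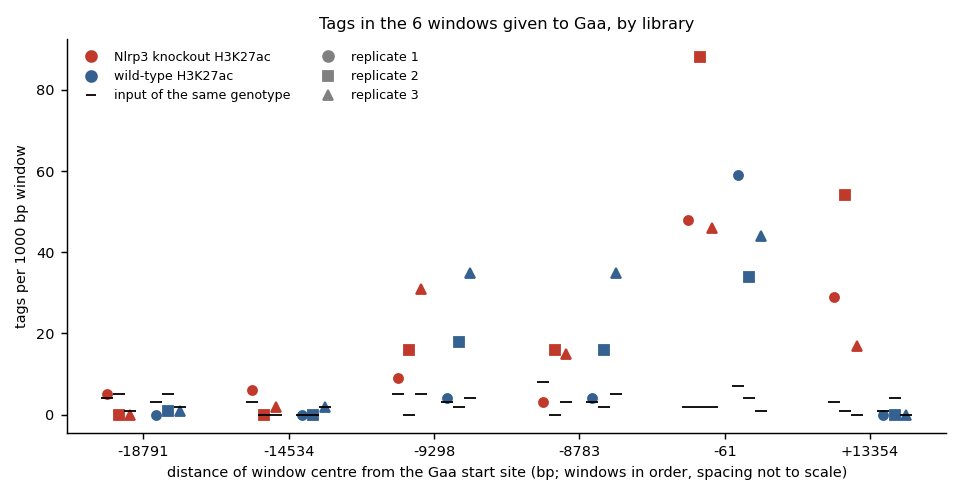
Tags per 1000 bp window in the 6 windows given to Gaa, in order of their distance from the start site (not to scale), for knockout libraries (red, left) and wild-type libraries (blue, right), with dashes for the input. The window at +13354 bp has 17 to 54 tags in knockout and 0 in wild type, while the promoter window at -61 bp has 46 to 88 in knockout and 34 to 59 in wild type.

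Summed over its 6 windows, Gaa had 47.9, 76.4 and 57.6 CPM in knockout libraries, against 39.9, 37.5 and 61.4 in wild-type libraries. These overlapped, and the log2 change of 0.39 with SE 0.29 was not called (edgeR adjusted p = 0.934), with values of 0.19 without knockout replicate 2 to 0.64 without wild-type replicate 3. With the intronic window left out of the sum the log2 change was -0.04, so the direction of the gene's sum rested on that window.

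Lipa, the acid lipase that frees cholesterol from its esters, had 90.1, 95.7 and 121 CPM in knockout, against 117, 128 and 158 in wild type. Knockout replicate 3 exceeded wild-type replicate 1, and the log2 change was -0.40 with SE 0.20 (edgeR adjusted p = 0.884). Windows in its intron 3 had the lower knockout values. The one 5899 bp past the start had 15, 21 and 7 tags in knockout, against 41, 29 and 45 in wild type (log2 change -1.66, SE 0.50, edgeR adjusted p = 0.654), and its site was in the knockout list alone. Another, 11621 bp past the start, had 98, 118 and 109 tags in knockout, against 100, 132 and 190 in wild type (log2 change -0.58, SE 0.24), and without wild-type replicate 3 the log2 change was -0.35. In CPM neither window overlapped between genotypes. The promoter window had 19, 21 and 59 tags in knockout, against 20, 22 and 41 in wild type, and overlapped.

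Gusb, beta-glucuronidase, had the highest summed level of these hydrolases, with 172, 139 and 198 CPM in knockout, against 161, 186 and 191 in wild type (log2 change -0.09, SE 0.17). Its promoter window had 129, 92 and 150 tags in knockout, against 70, 103 and 124 in wild type, and the groups overlapped in CPM. Smpd1, acid sphingomyelinase, and Man2b1, lysosomal alpha-mannosidase, set the ends of the range with few tags behind them. Smpd1, with 1 window, had 20, 53 and 7 tags in knockout, against 14, 20 and 0 in wild type (log2 change 0.93, SE 0.81). Man2b1 had 35.0, 20.2 and 22.8 CPM in knockout, against 29.1, 27.7 and 68.2 in wild type, where wild-type replicate 3 was far above the others (log2 change -0.68, SE 0.37). Hexa, the alpha subunit of hexosaminidase, had 138, 123.4 and 177 CPM in knockout, against 153, 124 and 170.03 in wild type. Gla, alpha-galactosidase A, had in its promoter window, over the promoter printed above, 142, 89 and 82 tags in knockout, against 87, 82 and 84 in wild type. The log2 changes of Gla, Glb1, Hexa, Neu1 and Tpp1 were -0.13 to 0.25, and their groups overlapped.

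The 3 soluble cofactors had 0 called and log2 changes of -0.06, 0.09 and 0.22. Psap, the precursor of the saposins that help hydrolases reach lipids, had 514, 476 and 513 CPM in knockout, against 440, 501 and 464 in wild type over 25 windows, the most of any member. Its libraries overlapped, with a log2 change of 0.09 and SE 0.10. The Psap promoter window had 73, 32 and 49 tags in knockout, against 22, 37 and 64 in wild type. A window 25236 bp upstream, in the wild-type site list alone, had 27, 59 and 16 tags in knockout, against 16, 14 and 9 in wild type (log2 change 1.11, SE 0.57, edgeR adjusted p = 0.998), and overlapped in CPM. Without knockout replicate 2 its log2 change was 0.55.

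Npc2, which carries cholesterol inside the lysosome, had 419, 412 and 479 CPM in knockout, against 313, 412 and 396 in wild type. Wild-type replicate 2 overlapped the knockout libraries, and the log2 change was 0.22 with SE 0.12 (edgeR adjusted p = 0.901), or 0.11 without wild-type replicate 1. Its promoter window had 70, 96 and 77 tags in knockout, against 42, 62 and 89 in wild type. Grn, progranulin, is needed for normal lysosomal function, and in people its loss causes frontotemporal dementia. It had 172, 202 and 215 CPM in knockout, against 186, 194 and 235 in wild type (log2 change -0.06, SE 0.16), and its promoter window had 99, 128 and 53 tags in knockout, against 71, 69 and 88 in wild type.

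The 7 membrane proteins had 5 positive and 2 negative log2 changes, and 0 were called. Cd68, a heavily glycosylated lysosomal protein used as a marker of phagocytic microglia, had 82.4, 74.6 and 116 CPM in knockout, against 73.2, 77.1 and 43.6 in wild type. The groups overlapped over the gene (log2 change 0.49, SE 0.26, edgeR adjusted p = 0.892). At the start site, chr11:69665669-69666669, the tags were 99, 112 and 140 in knockout, against 79, 86 and 49 in wild type, and in CPM the groups did not overlap. That window's log2 change of 0.50, with SE 0.28, was not called either (edgeR adjusted p = 0.998), and its highest value was that of knockout replicate 3 and its lowest that of wild-type replicate 3, both libraries that lay apart. The log2 change of the window was 0.27 without knockout replicate 3 and 0.26 without wild-type replicate 3, and that of the gene 0.28 and 0.26.

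Lamp1, a main protein of the lysosomal membrane, had 58.9, 71.1 and 79.3 CPM in knockout, against 63.6, 91.8 and 81.3 in wild type (log2 change -0.18, SE 0.24, and -0.31 to -0.06 without single libraries). The start-site window, with the CACGTG copies printed above, had 62, 75 and 72 tags in knockout, against 39, 62 and 66 in wild type. Scarb2, the receptor that brings glucocerebrosidase to the lysosome, had the highest summed level of the group, with 403, 393 and 338 CPM in knockout, against 428, 340 and 371 in wild type. Its log2 change of -0.01, with SE 0.12 and a 95% interval of -0.26 to 0.24, was among the most precise. The Scarb2 promoter window had 153, 147 and 114 tags in knockout, against 120, 104 and 142 in wild type.

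Npc1, the membrane protein that exports cholesterol handed over by Npc2, had 92.5, 136 and 120 CPM in knockout, against 127, 99.4 and 101 in wild type (log2 change 0.09, SE 0.21). Its promoter window had 40, 52 and 40 tags in knockout, against 41, 32 and 46 in wild type. Lamp2, the partner of Lamp1 that also serves chaperone-mediated autophagy, had 183, 139.6 and 155 CPM in knockout, against 129, 183 and 137 in wild type (log2 change 0.08, SE 0.18). Cd63, a tetraspanin of late endosomes, had 67.1, 46.1 and 81.9 CPM in knockout, against 49.4, 60.3 and 36.7 in wild type (log2 change 0.41, SE 0.29). Both overlapped between genotypes. Mcoln1, the gene of a lysosomal calcium channel, had a single window, over its start site, with 52, 63 and 68 tags in knockout, against 40, 49 and 37 in wild type (log2 change 0.33, SE 0.36), and the groups overlapped in CPM.

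The 4 subunits of the vacuolar proton pump (V-ATPase) gave the group with the highest median, 0.20, and 0 of 4 were called. Atp6v0d2, the d2 subunit of the membrane sector that macrophages and osteoclasts use, had 153, 197 and 200.2 CPM in knockout, against 134, 150.4 and 149 in wild type. The groups did not overlap, with means of 184 ± 26.2 CPM in knockout and 144 ± 9.07 in wild type (SD, n = 3 each), and the log2 change was 0.34 with SE 0.17 (edgeR adjusted p = 0.872). A window 26735 bp past the start, in intron 2, had 59, 105 and 103 tags in knockout, against 44, 46 and 51 in wild type (log2 change 0.71, SE 0.31, edgeR adjusted p = 0.998). The gene had no promoter window, so all of its values came from distal sites.

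Atp6v1a had lower values in the knockout, with 373, 367 and 374 CPM in knockout, against 450.3, 387 and 452 in wild type. All 3 knockout values were below the lowest wild-type value, and the log2 change was -0.21 with SE 0.11 (edgeR adjusted p = 0.893). The start-site window, over the TCACGTGA stretch, was the highest promoter window of any member, with 279, 286 and 256 tags in knockout, against 283, 244 and 270 in wild type. In CPM it averaged 131 ± 4.42 in knockout and 147 ± 18.6 in wild type (SD, n = 3 each), and the groups overlapped. Atp6v0d1, the widely used d1 counterpart of the d2 subunit, had 127, 121 and 129 CPM in knockout, against 98.1, 117 and 125 in wild type. Its window over the TCACGTGA stretch had 102, 88 and 89 tags in knockout, against 54, 83 and 102 in wild type, and the groups overlapped. The gene's log2 change was 0.14, and that of Atp6v1h, a regulatory subunit gene with 1 window, was 0.27, and both overlapped.

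The phagocytic receptors had log2 changes of 0.04 to 0.60 and 0 of 3 were called. Mertk, the receptor tyrosine kinase that binds apoptotic cells through bridging ligands, had 323, 329 and 352 CPM in knockout, against 349, 314 and 314 in wild type. Its log2 change of 0.04 had a 95% interval of -0.22 to 0.29. The Mertk promoter window had 37, 36 and 37 tags in knockout, against 23, 42 and 23 in wild type. Stab1, stabilin-1, a scavenger receptor of macrophages, had 203, 191 and 120 CPM in knockout, against 189, 179 and 118 in wild type, with replicate 3 lowest in each genotype (log2 change 0.08, SE 0.20). Its promoter window had 65, 38 and 35 tags in knockout, against 51, 46 and 12 in wild type. Cd36 had 2 windows, neither at the promoter, with 2.40, 7.03 and 10.9 CPM in knockout, against 11.3, 2.17 and 0 in wild type. With these few tags its log2 change of 0.60 had an SE of 0.97, and without single libraries it ran from 0.0026 to 2.58.

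**Figure D4:**
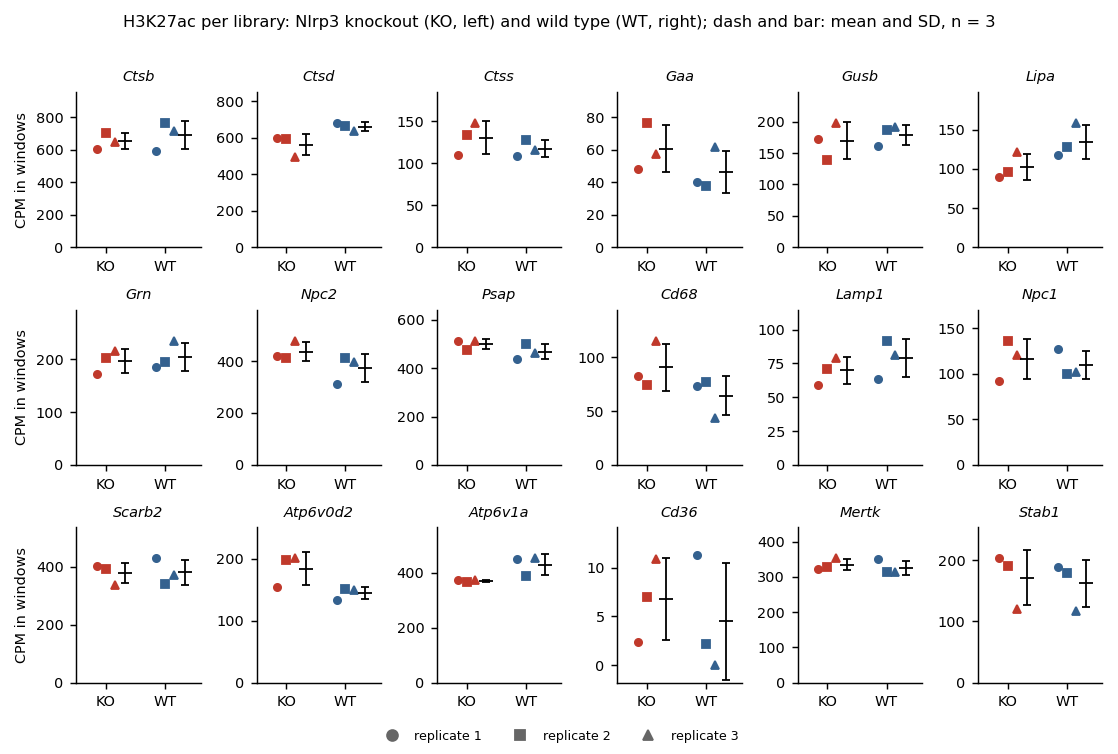
H3K27ac level of 18 genes in each library, in CPM, with knockout (red) left and wild type (blue) right, and dashes and bars for the mean and SD of 3 libraries. The groups overlap in all but Ctsd and Atp6v1a, where knockout is lower, and Atp6v0d2, where it is higher.

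Over the 207 tested windows, 7 had an unadjusted p under 0.05 (3.38%), against 4.69% of all windows, 3 of them higher and 4 lower in knockout. In 21 windows the libraries of the genotypes did not overlap, 12 with knockout above and 9 with knockout below, where 10.9% of all windows were without overlap. After the Gaa window the second lowest adjusted p was 0.654. At promoter windows the median log2 change was 0.09 over 55, against -0.0036 over all promoter windows, and at distal windows 0.04 over 152, against 0.0083 over all distal windows. The 41 windows too low to test are not in these counts. Of the highest promoter window of each of 34 genes, 23 had a positive log2 change, and only that of Cd68 had groups that did not overlap.

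**Figure D5:**
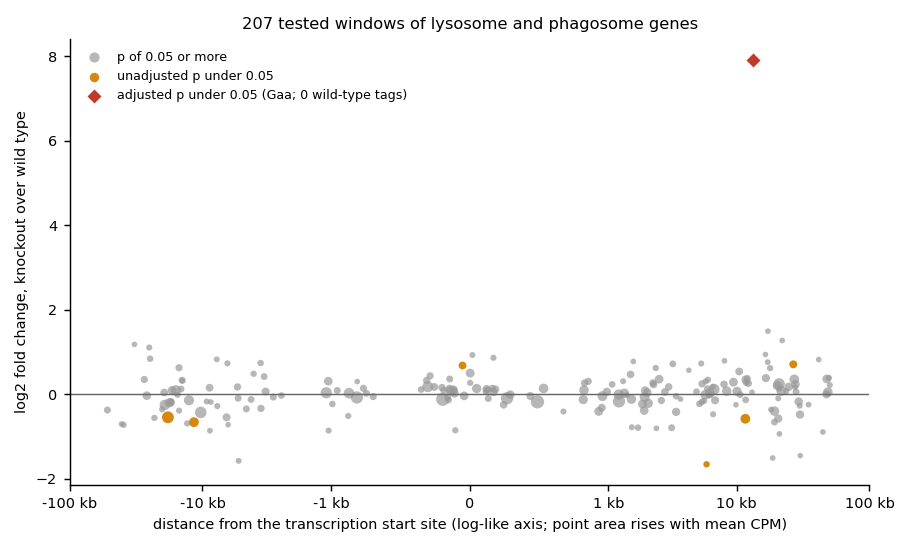
Log2 fold change of knockout over wild type in the 207 tested windows by their distance from the start site, on a log-like axis, with point area rising with the mean level. The called Gaa window (red diamond) had 0 wild-type tags, so its fitted height depends on the fit's prior count; the other 6 windows with an unadjusted p under 0.05 (orange) are on both sides of 0.

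Input chromatin was compared by the same kind of fit, but scaled to total tags. Of the members, 26 had enough input tags for the test, 0 were called, where 0.0899% of all genes were, and 3 had an unadjusted p under 0.05, where 9.56% of all genes did. These 3 were Ctsd, Psap and Ctsh, with log2 changes of -0.50, -0.42 and -0.58 of knockout over wild type. Of the 26, 20 were negative and the median was -0.16, against -0.20 over all genes, of which 72.8% were negative. Input is the denominator of the folds over input given above.

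No gene was called among the lysosomal and phagosomal genes outside these 37 either. Of 107 listed, 99 had a window and 91 were tested, with 0 called, where 0.206% of all genes were, and 5 at an unadjusted p under 0.05, where 5.77% of all genes were. Of the 91, 58 had a positive log2 change, with a median of 0.08. The lowest adjusted p was that of Ctso, cathepsin O, at 0.396 with a log2 change of -1.06 and SE 0.33. Slc11a1, a metal ion transporter of the phagosome membrane, had a log2 change of -0.39 with SE 0.14, and Arsb, the sulfatase arylsulfatase B, 0.45 with SE 0.18.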

How the data were processed

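H3K27ac and input libraries of both genotypes were taken from 1 table of raw tag counts that the authors deposited unscaled. HOMER made the counts on mm10, per the file headers, in 67822 windows of 1000 bp on merged sites from an ATAC directory, some of which overlap and share tags (12572 would have to be dropped for none to overlap). The submitters' processing notes also name DESeq2. Not given in the sources used here: aligner, duplicate handling and versions. A second deposited table, scaled by the authors per the file headers, was not used.

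The 37 genes and the gene lists were chosen with earlier results of these data known. Windows were given to genes as the table names them, by nearest start site, so overlapping or neighbouring genes can share them, and summed within 100 kb. Knockout and wild type (3 libraries each) were compared with edgeR 4.0.16 (R 4.3.3): quasi-likelihood fit, filterByExpr, TMM, no covariate, Benjamini-Hochberg adjustment over all genes or windows, called under 0.05. ChIP over input and input fits used total tags as library sizes. Levels (CPM) are tags per 1000000 tags summed over all windows of a library, with tags in overlapping windows counted more than once. Tag counts limit precision, and the floor of 3 tags covers counting error only. The fits were tested on simulated data. Alternatives were DESeq2 1.42.0, other scalings, filters, distances, a replicate block and leaving out each library. Genes given in every library were those called, the highest and the lowest p in each role group, and 13 fixed ones. Windows given so were the 10 with the lowest p and the highest promoter window of those genes. Other genes and windows given by library were chosen after their values were seen: Ctsz, Ctsf, Ctsc, Man2b1, Hexa, Lamp2, Cd63 and Atp6v0d1, and windows of Ctsz, Gla, Mcoln1, Smpd1 and Atp6v0d1 and the second of Ctsa. RefSeq promoters (GRCm38.p6) were searched for 3 motifs with Python 3.11.15.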

Additional observations from a re-analysis of the deposited data

How the results depend on the processing

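No member gene was called under any alternative, in H3K27ac or in input. With overlapping windows left out, 18 genes, those given in every library by rule, were checked for an unadjusted edgeR p under 0.05. Ctsd, Lipa, Atp6v1a, Gaa and Cd68 were under it, with log2 changes of -0.25, -0.40, -0.36, 0.59 and 0.48. The share of all genes under it was not counted in this alternative. The median log2 change over the members was 0.04 to 0.10 across all alternatives. Alternatives that limit windows by distance covered only members with such windows, at most 34 of the 37 for windows within 1 kb. One member window was called under DESeq2, total-tag scaling, upper-quartile factors, no filter and the replicate block. Without single libraries the count was 0 to 1, with 0 without knockout replicate 1, knockout replicate 2 or wild-type replicate 2, and among windows in both site lists, which leave the Gaa window out, it was 0. Replicate numbers did not pair the libraries (correlations of same-numbered deviations -0.011, -0.00264 and -0.00977), and the replicate block gave 15 called genes of all tested, against 25 without it.

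Calls over all genes were 16 with total-tag scaling, 48 with no filter, 11 with windows within 10 kb, 1 with windows within 1 kb, and 8 to 18 without single libraries. Calls over all windows were 68 under DESeq2, 68 with no filter, 2 for windows in both site lists, and 10 to 29 without single libraries. With TMM, which takes most windows as equal between ChIP and input, 21 members were called over input in knockout and 21 in wild type, and of all genes 2819 in knockout and 2803 in wild type. Input calls were 13 with TMM and 4 to 10 without single libraries.

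Log2 changes of 10 uncalled genes changed sign, of the 18 checked, which were those given in every library by rule. The other members were not checked for this. With windows within 1 kb they were 0.14 (Gusb), 0.12 (Lamp1), 0.10 (Lipa) and -0.23 (Npc1). With windows within 10 kb they were 0.085 (Ctsb), -0.082 (Gaa), -0.14 (Npc1) and 0.017 (Scarb2). Without the called Gaa window, an alternative chosen after seeing the data, Gaa was at -0.038. Without overlapping windows Grn was at 0.023 and Mertk at -0.046, and with upper-quartile factors Scarb2 was at 0.00076. Without single libraries the ranges were -0.14 to 0.037 (Grn), -0.21 to 0.043 (Gusb), -0.0057 to 0.088 (Mertk), -0.042 to 0.23 (Npc1), -0.083 to 0.087 (Scarb2) and -0.11 to 0.27 (Stab1). The cause was not tested.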

Other observations

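The called Gaa window lies on chromosome 11, which also carries Nlrp3, 59737683 bp from the Nlrp3 promoter window. Of the 24 windows called over the whole table, 7 (29.2%) were on chromosome 11, with 8.03% of the tested windows. That count includes windows of Nlrp3 itself, the gene knocked out, beginning at 59542134 and 59541020 (edgeR adjusted p = 4.9e-06 and 0.0034). In 3 of the 24 called windows all libraries of 1 genotype had 0 tags, the Gaa window among them. Of the members, Grn and Cd68 are the others on this chromosome.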
